A study of Homo sapiens with 4 samples.

Results

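Zinc finger genes of the ZNF series on human chromosome 19 were examined in an m6A peak list from MDA-MB-231 cells. The genes were taken by name: every protein-coding gene on chromosome 19 whose symbol is ZNF followed by digits and at most 1 further letter. This gave 246 of the 20037 nuclear protein-coding genes in RefSeq. Of these 246 genes, 129 had at least 1 m6A peak and 117 had none, and together they carried 330 of the 20261 peaks in the list.

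MDA-MB-231 is an established cell line of human triple negative breast cancer. Fragmented polyA RNA was sequenced in 2 input libraries and, after immunoprecipitation (IP) with an antibody that binds N6-methyladenosine (m6A), in 2 IP libraries, all from cells whose titles carry shNS, with no further treatment group. The treatment field of the IP libraries names YTHDC1, while their titles and protocol describe m6A IP, and the IP libraries were read here as m6A IP. The authors combined the replicates into 1 list with 1 score per peak, so no value below has a spread between replicates, and read depth is unknown.

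Most genes of this family encode proteins with a row of C2H2 zinc fingers that bind DNA, and many also carry a KRAB domain, which recruits the co-repressor TRIM28 and silences transposable elements and other targets. They arose by repeated tandem duplication and stand in large clusters on chromosome 19. The whole row of fingers is usually encoded in 1 long last exon. m6A is deposited on nascent mRNA in the RRACH context (A or G, A or G, A, C, then A, C or T), most often in long exons and near stop codons, and GGACT is among its most frequent forms.

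Sequence could be read, in part, for the 13 member peaks that reached into a RefSeq window around a gene start (GRCh38.p14), over 6 to 299 bases each. On the gene strand, 10 of the 13 held no GGACT in the bases read and 3 did. The sites of these 3 are printed here 5′ to 3′ on the strand of the gene with GGACT in capitals, because they show the best known m6A context inside a called peak. The strongest of these peaks was that of ZNF146, a protein made almost wholly of zinc fingers, with a score of 1.6e-14.
ZNF146, chr19:36235706-36235730, plus strand: agaggcaccaGGACTtgggaggcat
ZNF146, chr19:36235849-36235873, plus strand: aacacaacctGGACTgaaatcatga
ZNF146, chr19:36235893-36235917, plus strand: aatcatcaagGGACTtagttgggag
ZNF432, chr19:52049056-52049080, minus strand: tctgttcagaGGACTttacccccac
ZNF566, chr19:36489742-36489766, minus strand: gcctgaggcgGGACTccatgaggcc

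The ZNF146 sites lie in a 343-base block of its peak (36235659 to 36236001), of which 299 bases could be read. These 299 bases held 5 RRACH matches on the transcript strand, 3 of them GGACT, and 6 RRACH matches but 0 GGACT on the other strand. Among 34943 RefSeq windows of 300 bases around gene starts, 25.2% held GGACT on the gene strand and 25.4% held it on the other strand. The shares with 3 or more were 0.466% on the gene strand and 0.472% on the other strand. The window read for ZNF146 is that of LOC107985304 on the minus strand, so the other-strand share is the one to set beside it. ZNF146 is also the peak with the most GGACT among those read. At least 1 RRACH match was found in 94.3% of the windows, so a single RRACH match says little. The ZNF432 and ZNF566 peaks were weaker, with scores of 2e-04 and 7.9e-05, and both lay just beyond the RefSeq 5′ end of their gene. The ZNF566 peak also shared 135 bases with a peak of ZNF566-AS1 on the opposite strand.

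A second set of sites is shown because closely related copies are a property of this family. Peaks of ZNF83, ZNF611 and ZNF468, which lie in the same cluster on the minus strand, each had a block near a RefSeq gene start that holds a closely related 30-base site. The 3 genes were picked for this, and the stretch shown was chosen for the best match among these blocks. Its match is thus the highest found, and that between other genes was not tested. Capitals mark the 24 bases that all 3 genes share.
ZNF83, chr19:52638346-52638375: CTGCGCGCGCAcATgcgCGCAaACCcGGAA
ZNF611, chr19:52735035-52735064: CTGCGCGCGCAgATtaaCGCAaACCcGGAA
ZNF468, chr19:52857610-52857639: CTGCGCGCGCAgATtcgCGCAgACCaGGAA

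The scores of these peaks were 2.1e-06, 0.00210 and 5.4e-06. The authors' alignment kept reads that mapped to several places but limited the mismatches in a read. The sites of ZNF83 and ZNF468 each shared 26 of 30 bases with that of ZNF611. Whether reads of any member counted for more than 1 gene was not tested.

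Over both strands, 52.4% of the 246 members had a peak (95% Wilson interval 46.2 to 58.6%), against a background of 40.8% of all nuclear protein-coding genes. Wilson intervals, and the Newcombe intervals given for differences, cover counting error over genes only, and genes are not replicates. Among the 263 ZNF genes on other chromosomes, 174 had a peak (66.2%, 60.2 to 71.6%), 13.7 percentage points more than the members (interval 5.18 to 22.0 for the difference). Among the 1205 other protein-coding genes on chromosome 19, 521 had a peak (43.2%), 9.20 points fewer than the members (2.37 to 16.0). The members thus lay between their relatives elsewhere and their neighbours on the chromosome. RNA levels were not in the list, and a member without a peak cannot be told apart from one with little RNA in these cells.

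The share with a peak differed widely with the strand of the gene. The strand was taken from RefSeq, which gave it for 216 members, 100 on the minus and 116 on the plus strand. Of the minus-strand members 85 had a peak (85.0%, 76.7 to 90.7%), against a background of 55.6% for all minus-strand protein-coding genes. Of the plus-strand members 33 had a peak (28.4%, 21.0 to 37.2%), against a background of 29.3%. The minus-strand members stood far above their background and the plus-strand members did not. For the 30 members whose strand RefSeq tables did not give here, 11 had a peak (36.7%, 21.9 to 54.5%). Among such genes the share was 57.1% for ZNF genes elsewhere and 29.2% for other chromosome 19 genes. It was 35.8% for the remaining protein-coding genes, near that of the members.

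The difference between strands was 56.6 points among members (44.5 to 65.9). It was 40.9 points among ZNF genes on other chromosomes (29.2 to 50.9) and 23.7 points among other chromosome 19 genes (17.5 to 29.7). The direction was thus the same in all 3 groups. The list as a whole leans the same way, with 72.3% of its peaks on the minus strand. Of the member peaks 272 of 330 were on the minus strand (82.4%, 78.0 to 86.2%), although only 46.3% of the members with a known strand are minus-strand genes. The strand written for a peak matched the RefSeq strand of its gene in all 14012 peaks that could be compared, members included. Peaks are listed by annotated gene, so this match is no check on the strand of the reads. The cause of the strand difference was not tested.

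**Figure D1:**
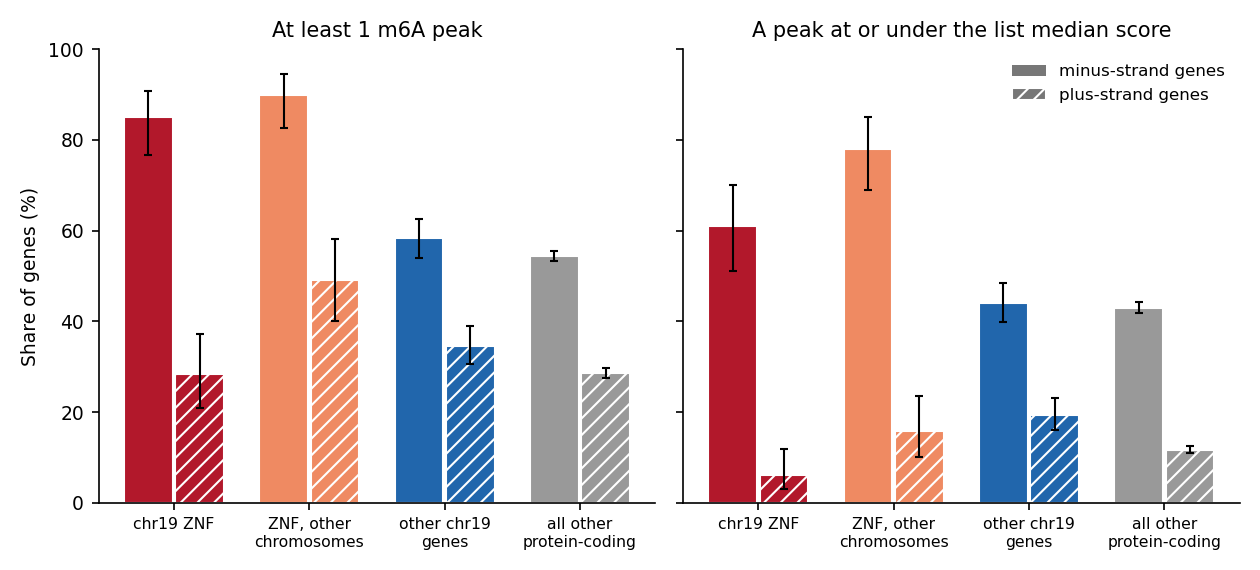
Share of genes in percent with at least 1 m6A peak (left) and with a peak at or under the list median score of 5.2e-08 (right), for 4 groups of protein-coding genes, by gene strand (filled bars minus, hatched bars plus). Error bars are 95% Wilson intervals; members on the minus strand reached 85.0% and those on the plus strand 28.4%.

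Within the minus strand, members and ZNF genes on other chromosomes had peaks about as often, 85.0% against 90.0%, and the interval of the difference ran from 14.4 points lower to 4.37 points higher in members. Other minus-strand genes of chromosome 19 had a peak in 58.3% (287 of 492), 26.7 points fewer than the members (17.3 to 33.9). On the plus strand the order changed. Plus-strand members (28.4%) were 20.7 points below plus-strand ZNF genes elsewhere (49.1%, 56 of 114, interval of the difference 8.09 to 32.4). Against the other plus-strand genes of chromosome 19 (34.6%, 165 of 477) they ranged from 14.8 points lower to 3.58 points higher. Zinc finger genes thus exceeded their chromosomal neighbours on the minus strand, while on the plus strand of chromosome 19 no such excess was detectable.

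Each peak has a score from the authors' caller, read as a p-value of IP against input, so that smaller means stronger. With only peaks at or under the list median of 5.2e-08, 73 members had a peak (29.7%), against a background of 26.6%. On the minus strand 61 of 100 members had such a peak (61.0%, 51.2 to 70.0%), against a background of 43.8%. On the plus strand 7 of 116 had one (6.03%, 2.95 to 11.9%), against a background of 12.2%. By this stricter measure minus-strand members were 17.0 points below minus-strand ZNF genes elsewhere (78.0%, interval 4.23 to 29.0) and 16.9 points above the other minus-strand genes of chromosome 19 (44.1%, interval 6.15 to 26.9). Plus-strand members were below both, by 9.75 points (1.65 to 18.1) and by 13.3 points (6.50 to 18.1).

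By score, single member peaks were weaker than those of the other groups. The median score of the 330 peaks was 5.4e-06, against 1.2e-07 for ZNF genes elsewhere and 3.2e-09 for other chromosome 19 genes. At or under the list median were 118 member peaks (35.8%), against 48.8% of the peaks of ZNF genes elsewhere and 54.8% of those of other chromosome 19 genes. For the strongest peak of each gene on the minus strand the members were again the weakest group, with a median of 3.2e-12 for members, 1.3e-37 for ZNF genes elsewhere and 7.9e-29 for other chromosome 19 genes. On the plus strand the median strongest score of the members was 2.7e-05, against 3.7e-06 for ZNF genes elsewhere and 8.4e-09 for other chromosome 19 genes. Over single plus-strand peaks the medians were 2.1e-05 for members, 4.6e-05 for ZNF genes elsewhere and 7.6e-06 for other chromosome 19 genes. By that measure the members were not the weakest group. No member peak was listed at a score of 0, while 40 peaks of other chromosome 19 genes were. A score depends on read depth as well as enrichment, and their parts were not tested.

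**Figure D2:**
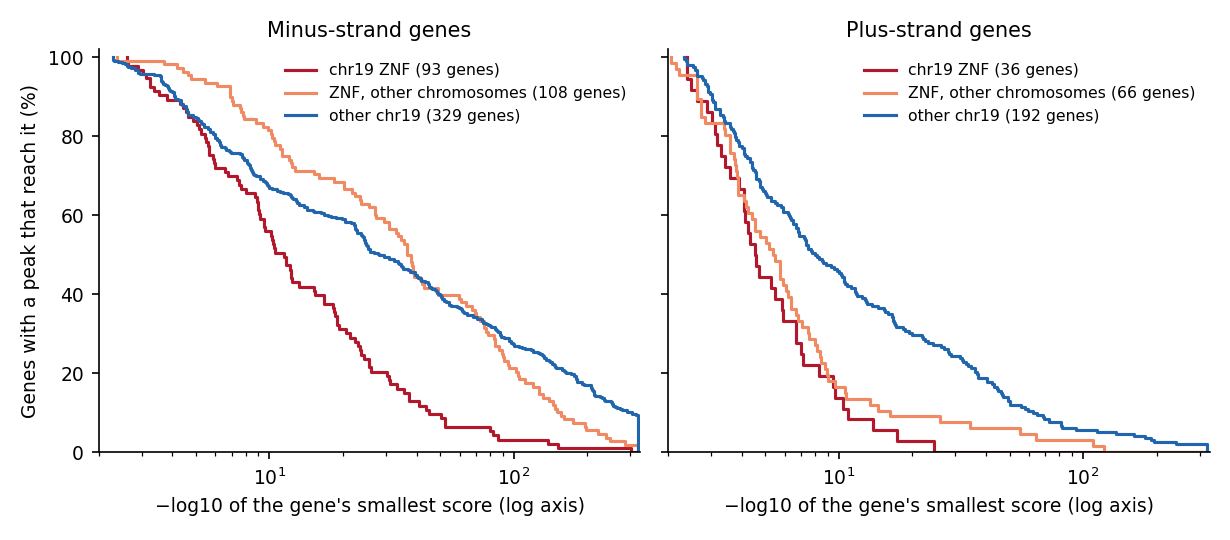
Share of genes with a peak, in percent, whose strongest peak reached a given −log10 score (log axis), for minus-strand (left) and plus-strand genes (right) by the strand written in the list. Scores listed at 0 are drawn at the right edge; on the minus strand the line of the 93 chromosome 19 ZNF genes, whose median strongest score was 3.2e-12, ran below both other groups over most of its course.

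Genes that had peaks often had several. Members with a peak carried 2.56 ± 1.47 peaks (mean ± SD over 129 genes), ZNF genes elsewhere 2.66 ± 1.70 and other chromosome 19 genes 2.12 ± 1.34. In the 93 members on the minus strand the mean was 2.92 ± 1.43, and in the 36 on the plus strand 1.61 ± 1.10. A single peak was listed for 38 members, 2 peaks for 32, 3 for 28, 4 for 18 and 5 or more for 13. At least 3 peaks were found in 48 of the 100 minus-strand members, a share of 48.0% that was 28.7 points above that of other minus-strand chromosome 19 genes (19.3%, interval of the difference 18.5 to 38.9). It was within 14.6 points below and 12.6 points above that of minus-strand ZNF genes elsewhere (49.0%).

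Neighbouring peaks of a member stood close together. Gaps were measured between peaks wholly inside the RefSeq span of their gene. Peaks in a second part of the list, where the chromosomes start again, and overlapping neighbours were left out. The median gap between neighbouring peaks of 1 gene was 328 bases of genome (quartiles 179 and 747), and 146 of 174 gaps were within 1000 bases (83.9%, 77.7 to 88.6%). For ZNF genes elsewhere 63.6% of gaps were that short (57.7 to 69.2%), and for other chromosome 19 genes 53.0% (48.5 to 57.4%). Pooled over strands, the peaks themselves were close in length to those of other chromosome 19 genes. Their median spliced length was 210.5 bases (quartiles 151 and 331), against 241 bases for ZNF genes elsewhere and 211 for other chromosome 19 genes. On the minus strand the member median was 239.5 bases, against 330 for ZNF genes elsewhere and 240 for other chromosome 19 genes. On the plus strand it was 180 bases, against 180 and 181.

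Member peaks seldom crossed a splice junction. A single block held 308 of the 330 peaks (93.3%, 90.1 to 95.6%), against 89.0% for ZNF genes elsewhere (85.8 to 91.5%) and 79.5% for other chromosome 19 genes (77.1 to 81.8%). A peak that runs over several exons would be written as several blocks, so most member peaks lay within 1 annotated exon. No map of exons was used here, and whether that exon was the last one was not analysed directly.

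Along the gene, member peaks gathered toward the 3′ end. Of the 314 peaks wholly inside the RefSeq span of their gene, 252 had their midpoint in the last 30% of the span (80.3%, 75.5 to 84.3%), against 57.8% for ZNF genes elsewhere (53.2 to 62.3%) and 57.9% for other chromosome 19 genes (54.9 to 60.9%). For the last 10% of the span the groups were closer, with 40.1% for members (34.9 to 45.6%), 31.2% for ZNF genes elsewhere (27.1 to 35.7%) and 36.8% for other chromosome 19 genes (33.9 to 39.8%). The excess over other chromosome 19 genes thus lay mainly in the stretch before the last 10%. Of the 314 peaks, 259 were on the minus strand. There 82.2% lay in the last 30% (77.1 to 86.4%), against 57.7% for ZNF genes elsewhere and 56.4% for other chromosome 19 genes. On the plus strand the shares were 70.9% (57.9 to 81.2%), 58.0% (49.5 to 66.1%) and 61.3% (55.9 to 66.5%), with overlapping intervals. In the last 10%, plus-strand members had 34.5%, against 30.5% and 37.4%. The first 10% of the span held 4 member peaks (1.27%), against 6.47% and 10.8% in the other groups.

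**Figure D3:**
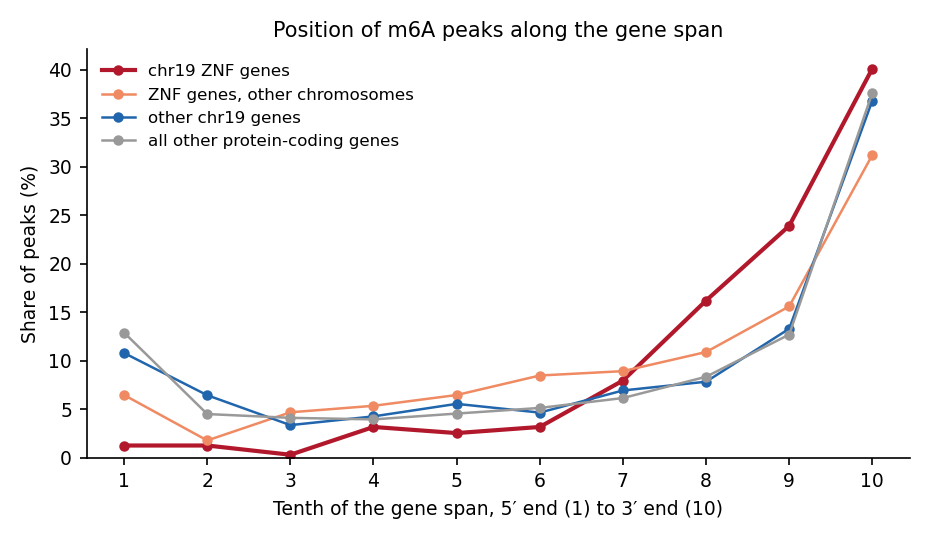
Share of peaks in percent whose midpoint fell in each of 10 equal parts of the gene span, introns included, from the 5′ end (1) to the 3′ end (10), for 4 groups of genes. The line of the members is the lowest in the first parts and the highest in the last 3, and it reached 40.1% in the last.

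In bases, the median member peak lay 2546 bases from the 3′ end of the span (quartiles 1440 and 4721), against 4536 for ZNF genes elsewhere and 2623 for other chromosome 19 genes. Within 3000 bases of the 3′ end were 175 member peaks (55.7%, 50.2 to 61.1%). The share was 37.9% for ZNF genes elsewhere (33.6 to 42.5%) and 53.6% for other chromosome 19 genes (50.5 to 56.6%). By this measure the members were close to their neighbours on the chromosome. The gene spans of members were longer than those of their neighbours, with a median of 23152 bases against 12763, so an equal distance in bases is a smaller part of the gene in members. Members with and without a peak had nearly equal median spans, 23145 and 23158 bases.

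The 22 member peaks with several blocks were read as crossing exon borders, with each gap between blocks taken as an intron. A gap need not be an intron in every transcript. In ZNF529 the first block of 1 peak ended at 36547528 and the next began at 36547558. Another ZNF529 peak, a single block of 988 bases, ran across this gap. In 15 of the 22 peaks the longest block was the one nearest the 3′ end, and in 7 it was another. The split was thus not the same in all members. In ZNF653, for example, a block of 16 bases on the 3′ side joined one of 521 on the 5′ side, and in ZNF577 the blocks were 33 and 118 bases. The block nearest the 3′ end held over 90% of the bases in 7 peaks, chosen for that. In ZNF77 this border was 1597 bases before the 3′ end of the gene, in ZNF837 1738, in ZNF266 2291, in ZNF497 3292, in ZNF561 4007, in ZNF121 6780 and in ZNF562 12074. The blocks on the 3′ side of these borders were 677, 885, 1151, 326, 1247, 1245 and 551 bases long, and the blocks on the 5′ side were at most 75 bases. Whether the exon on the 3′ side ran on to the end of the gene was not analysed here.

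ZNF616 on the minus strand had the most peaks, 9. Of these, 8 lay between 284 and 3634 bases from its 3′ end, measured at their midpoints, with scores from 0.00250 to 5e-11. The ninth was a 2-block peak near the 5′ end (5.6e-06). ZNF490 had 6 peaks between 1376 and 5460 bases from the 3′ end, the strongest at 4e-16, but 3 of them shared bases with peaks of ENSG00000269693 on the same strand. ZNF841 also had 6, of which 4 are in a second part of the list, where the chromosomes start again, and cover nearly the same ground as the 2 of the first part (5e-19 and 4e-19 for the strongest in each).

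ZNF865 was the plus-strand member with the most peaks. Its 6 peaks lay 374 to 3511 bases from the 3′ end with scores from 1.7e-05 to 5e-18, the strongest being the one nearest the end. The other members among the 10 with the most peaks had 5 each and are all minus-strand genes. In all, 9 members had 5 peaks, and the tie was settled by the smallest score, which left out ZNF91, ZNF28 and ZNF585B. In ZNF432 the strongest of the 5 was at 7.9e-27, in ZNF850 at 1.3e-19, in ZNF468 at 3.2e-12 and in ZNF320 at 7.9e-38. In ZNF497 (7.9e-13) both peaks nearest the 3′ end overlapped peaks of A1BG-AS1 on the opposite strand. In ZNF577 the smallest score (2e-12) belonged to a 2-block peak that shared 118 bases with the strongest peak of ZNF649, a neighbour on the same strand, so for that peak the 2 genes cannot be told apart.

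**Figure D4:**
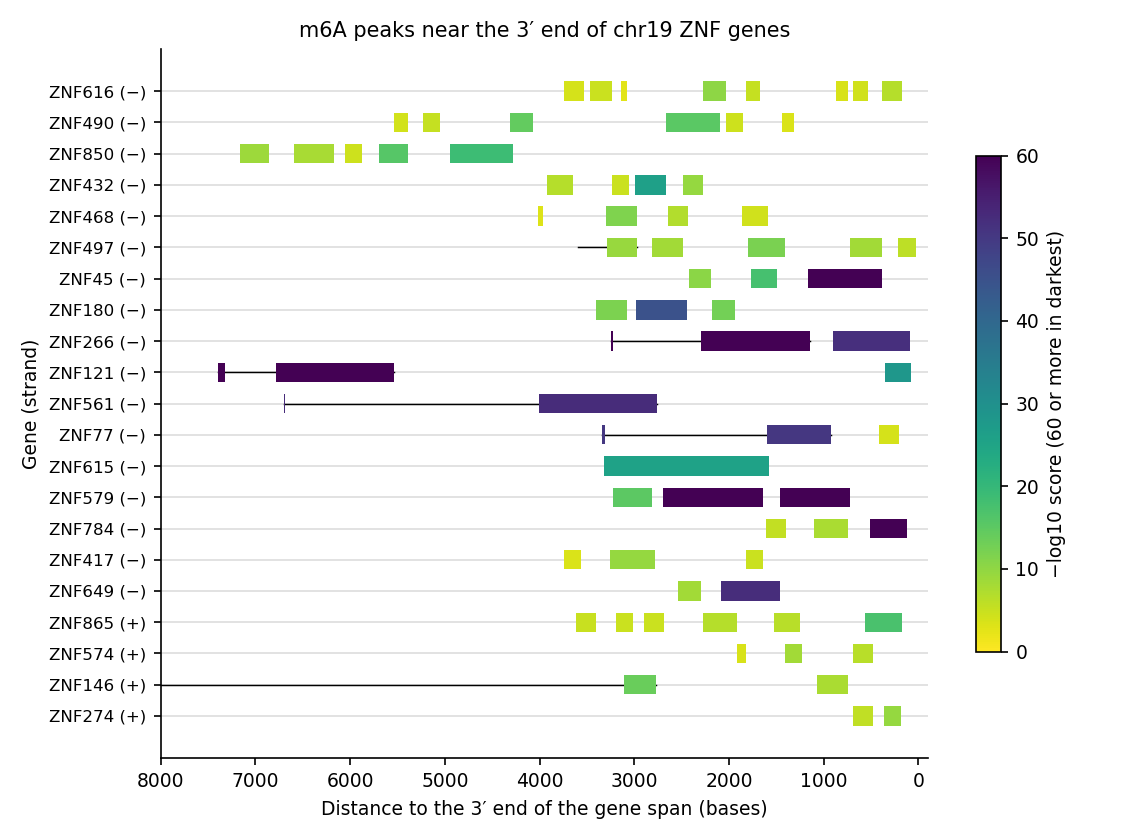
Peaks of 21 members by distance in bases from the 3′ end of the gene span (0 at the right), with 1 row per gene, strand in brackets, thick bars for the blocks of a peak and thin lines for the joins between blocks. Colour gives −log10 of the score, with 60 or more in the darkest shade; peaks beyond 8000 bases are not drawn, as are the peaks in the second part of the list, and most of the blocks drawn stand in the right part of the plot.

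ZNF579 had the smallest score of all members. Its 3 peaks stood side by side at chr19:55577492-55578239 (1e-303, 748 bases), chr19:55578419-55579465 (1e-195, 1047 bases) and chr19:55579585-55580003 (1e-15, 419 bases). ZNF787 followed with a peak of 1109 bases centred 554 bases from its 3′ end (1e-152), and 3 more farther upstream, of which the last lay at the 5′ end (2.1e-04). ZNF121, a MYC-binding zinc finger protein, had a 1320-base peak at 1e-138 and a peak 219 bases from the 3′ end at 6.3e-29. These and the genes that followed in strength were all on the minus strand.

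ZNF784 reached 6.3e-87 with a peak 312 bases from the 3′ end. ZNF266 had 2 peaks, of 810 and 1170 bases, at 1.6e-52 and 6.3e-83, which together covered most of the last 2291 bases of the gene. ZNF45 reached 1.6e-80 with the peak nearest to its 3′ end, and its other peaks, at 1.6e-18 and 3.2e-11, were weaker with distance from the end. ZNF561 had a single peak of 1256 bases (3.2e-53), and ZNF77 reached 3.2e-51 with 714 bases. In ZNF180 the middle of 3 adjoining peaks was the strongest (1.6e-45), with 2e-13 and 1.3e-12 on its sides. The longest peak of any member was in ZNF615, a single block of 1732 bases at chr19:51992915-51994646 (3.2e-26).

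Among peaks inside the RefSeq span of their gene, the members with those farthest from the 3′ end were ZNF577, ZNF91, ZNF44, ZNF787 and ZNF83. In ZNF91, all 5 peaks stood between 53567 and 57552 bases from the 3′ end of a span of 90468 bases. ZNF577 likewise had 4 peaks between 67780 and 69036 bases from the end of a span of 83510 bases. Such spans run to the most distant 3′ end that RefSeq records for a gene, so a peak far from it need not be far from the end of the transcript in these cells. ZNF83 had 3 peaks within 2082 bases of the 3′ end, the strongest at 7.9e-32, and the 3-block peak that holds the site shown above.

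Members known for silencing transposable elements or for other roles were listed whatever their values. ZNF91, which represses SVA and LINE-1 elements, had 5 peaks but none under 2.9e-08, and ZNF93, which represses LINE-1 elements and is a plus-strand gene, had 0. ZNF417 and ZNF587 are close paralogues that silence HERV-K elements. ZNF417 had 3 peaks, written on the minus strand, the strongest at 2.6e-10, and the plus-strand gene ZNF587 had none. ZNF649 had 3 peaks with 5e-53 for the strongest, which covered 627 bases. ZNF558 had 2, at 6.6e-10 and 0.00260.

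ZNF274, which brings the histone methyltransferase SETDB1 to the 3′ ends of zinc finger genes, had 2 peaks on the plus strand within 584 bases of its 3′ end (1.7e-06 and 3.3e-10). ZNF224 had 2 plus-strand peaks, 2.8e-05 and 3.4e-04, and both lay over peaks of ZNF225-AS1 on the opposite strand with nearly the same scores. ZNF331, an imprinted gene, had 1 peak at 0.00400. ZNF382, a KRAB repressor that is often silenced in tumours, and ZNF460 had none. Of the listed members whose strand RefSeq gave, the minus-strand genes ZNF91, ZNF558 and ZNF83 all had peaks, against the minus-strand background of 55.6%. Of the 7 plus-strand genes ZNF93, ZNF274, ZNF224, ZNF331, ZNF382, ZNF587 and ZNF460, 3 had peaks, against the plus-strand background of 29.3%.

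The strand pattern had exceptions on both strands, with 15 of 100 minus-strand members without a peak and 33 of 116 plus-strand members with one. The 15 minus-strand members without a peak were ZNF414, ZNF560, ZNF878, ZNF100, ZNF208, ZNF780A, ZNF780B, ZNF285, ZNF229, ZNF541, ZNF677, ZNF667, ZNF835, ZNF154 and ZNF132. On the plus strand 8 members had a peak at or under the list median, counted by the strand in the list. In ZNF358 its score was 1.3e-11, in ZNF524 4e-11, in ZNF71 2.3e-10 and in ZNF574 5.4e-09, beside ZNF865, ZNF146 and ZNF274 described above. The eighth, ZNF135, had the smallest score of any plus-strand member (3.2e-25), but both of its peaks lay outside the RefSeq span, well beyond the 3′ end of the gene, and over peaks of ZSCAN18 on the opposite strand, of which the stronger was at 1.3e-26.

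Such overlaps were more common on the plus strand. Of the 58 plus-strand member peaks 9 shared bases with a peak on the opposite strand (15.5%), and of the 272 minus-strand member peaks 3 did (1.10%). Peaks of the other groups leaned the same way. The plus-strand and minus-strand shares were 12.5% and 6.73% for ZNF genes elsewhere and 9.94% and 7.47% for other chromosome 19 genes. For the remaining protein-coding genes they were 12.1% and 5.81%. The lean was thus not particular to members, and its cause was not tested. A further 23 member peaks shared bases with a peak of another gene on the same strand, 5 of them with the read-through gene ZNF625-ZNF20. These 23 were 6.97% of member peaks, against 3.24% for ZNF genes elsewhere, 4.07% for other chromosome 19 genes and 3.93% for the remaining genes. With the opposite-strand overlaps left out, 29 of 116 plus-strand members kept a peak, and the minus-strand share was still 85.0%.

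By position on chromosome 19, the members fell into 16 clusters when a gap of over 1 Mb between neighbours started a new one. The strand difference was found within each of the large clusters. In the cluster from ZNF653 to ZNF791 (25 members), 13 of 14 minus-strand and 0 of 10 plus-strand genes had a peak. In that from ZNF565 to ZNF573 (26 members), 13 of 13 and 2 of 12 did. In that from ZNF175 to ZNF331 (39 members, 78 peaks), 16 of 17 and 1 of 15 did. The ancestry of the genes within these clusters was not analysed here.

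The cluster from ZNF101 to ZNF254, which holds the primate-expanded ZNF91 group, had the lowest share of the large clusters, with 12 of 37 members (32.4%). There 10 of 12 minus-strand and 1 of 17 plus-strand genes had a peak, and the strand of 8 was not in the table. The cluster from ZNF628 to ZNF446, toward the end of the long arm, was the largest, with 59 members and 80 peaks. It had 15 of 19 minus-strand and 16 of 35 plus-strand genes with a peak, more plus-strand members with a peak than in any other cluster. The cluster from ZNF575 to ZNF296 had 7 of 9 and 4 of 11, and that from ZNF557 to ZNF846 had 8 of 10 and 2 of 4.

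**Figure D5:**
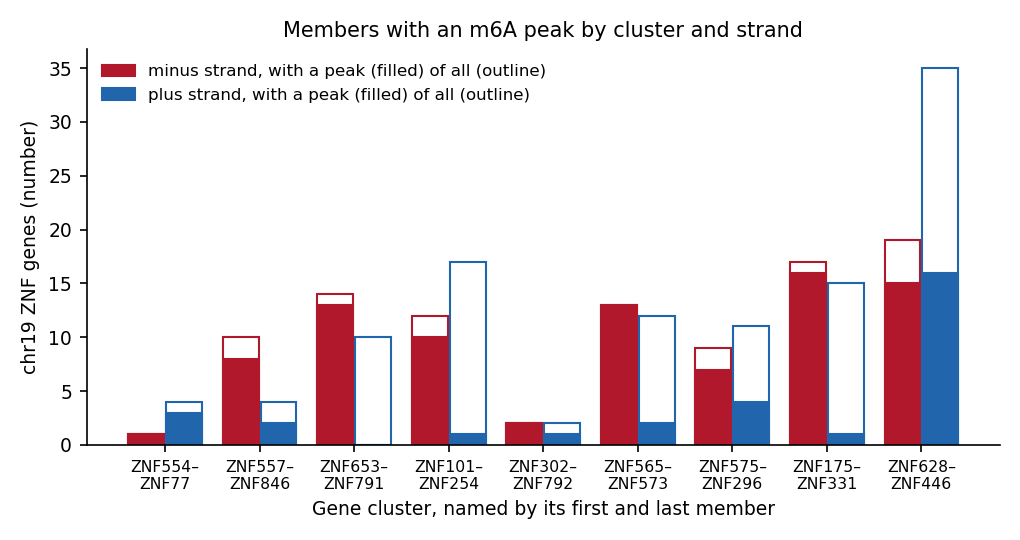
Number of members with a peak (filled) out of all members (outline) in the 9 clusters with at least 5 members, in chromosome order, for minus-strand genes (red) and plus-strand genes (blue); members whose strand was not in the table are left out. In the 6 largest clusters the filled share was larger on the minus strand, from 13 of 14 against 0 of 10 to 15 of 19 against 16 of 35.

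Genes that work with KRAB zinc finger proteins were examined as a list of 19 co-repressors and partners. Of these, 15 had a peak (78.9%, 56.7 to 91.5%) against the background of 40.8%, and 14 had one at or under the list median against 26.6%. These backgrounds pool the strands, while the share with a peak was 55.6% for minus-strand and 29.3% for plus-strand genes. The 4 strongest, named next, are all minus-strand genes. RNA levels were not in the list, so whether these 19 genes differ from the background in RNA level was not tested. The strongest were CHD4, a remodeller of the NuRD complex (5 peaks, 1e-287), the maintenance methyltransferase DNMT1 (6 peaks, 1e-273), the deacetylase HDAC2 (1e-242) and TASOR, the scaffold of the HUSH complex (6 peaks, 1e-180). MORC2, a HUSH-linked ATPase, had 5 peaks (6.3e-75) and the H3K9 methyltransferase SETDB1 1 (2.5e-13). No peak was listed for TRIM28, the co-repressor that KRAB domains bind, nor for CBX3, SMARCAD1 and ZFP57.

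Of the ZNF genes on other chromosomes, ZNF445, a KRAB protein that maintains imprints, had 8 peaks with a strongest score of 1.3e-77, and ZNF263 had 8 with 1.2e-09. ZNF318, ZNF721 and ZNF778 had 7 each, with 1.3e-76, 1.6e-43 and 2.5e-11. ZNF263 and ZNF778 are plus-strand genes, and the others are on the minus strand in the list. The count of 9 peaks in ZNF616 was thus close to that of the highest ZNF genes elsewhere.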

How the data were processed

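m6A-seq of 4 libraries (2 input, 2 m6A IP) was analysed from 1 deposited list. The authors aligned reads with STAR to the GENCODE annotation of the human genome, keeping reads that mapped to several places, called peaks with exomePeak, and filtered them by fold enrichment and FDR. Deposited scores were read as p-values of the peak caller, since the header does not tell p-value from FDR. The file holds no fold enrichment, counts or values for single libraries. 0 columns of single samples were left unused.

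Ensembl IDs were matched to symbols (10103 of 10140), and biotypes and spans came from RefSeq (GRCh38.p14). Gene strand came from the RefSeq table of gene starts. Shares are given with 95% Wilson intervals and their differences with Newcombe intervals. Overlap required at least 1 shared base. No tests were made. The members, gene lists and comparisons were chosen with earlier results of these data known. The named members were the 10 with the most peaks, the 10 with the smallest score, the 5 with the longest peaks, the 5 with peaks farthest from the 3′ end, and 12 listed whatever their values. Exons, fingers and protein features were not analysed here. Functions were tested on simulated data. Python 3.11.15, pandas 2.3.3, numpy 2.4.6 and SciPy 1.17.1 were used.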

Additional observations from a re-analysis of the deposited data

How the results depend on the processing

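Of 41 recomputed values, 34 stayed close to the value reported and 7 did not, close being within its 95% interval or, for the number of peaks per gene, within 1.5 times. Some of the 34 could not move. Merging overlapping peaks of a gene leaves the shares of genes with a peak as they are. Keeping only genes with an Ensembl ID kept all 246 members. With only peaks at or under the list median score, the share of members with a peak was 29.7%, that of minus-strand members 61.0% and that of plus-strand members 6.03%, the number of peaks per member with a peak was 1.62, their median length 388 bases, and the share of member peaks on the minus strand 92.4%. Counting peaks within 3000 bases of the 3′ end in place of the last 10% of the span gave 55.7%. Merging overlapping peaks, leaving out overlaps, using the first part of the list, a wider symbol rule (52.1%) and matching by coordinates (54.6%) stayed within these limits. The share by ID among members with a strand, also 54.6%, was added after the data were seen. Alternatives by number of fingers and by last exon were not run. No paired analysis was possible because the replicates were combined into 1 list. With depth unknown and no spread between replicates, intervals cover counting error only.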
